A study of Mus musculus with 8 samples.

Results

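The nuclear-encoded subunits of the 5 respiratory chain complexes were read in bulk RNA-seq of sorted bone marrow cells, labelled stem cells, from mice with chronic myeloid leukemia (CML). Rows of the count table were taken by symbol: Ndufa, Ndufb, Ndufc, Ndufs and Ndufv genes with a number, together with Ndufab1, for complex I; Sdha to Sdhd for complex II; Uqcr genes for complex III; Cox4i, Cox5, Cox6, Cox7 and Cox8 genes for complex IV; and Atp5 genes for complex V. The rule found 81 of 15576 rows, of which 39 belonged to complex I, 4 to complex II, 8 to complex III, 13 to complex IV and 17 to complex V. After a filter on low counts, 77 of them were tested (38, 4, 8, 11 and 16), and Ndufs5, Cox4i2, Cox7c and Atp5k were too low. Subunits encoded by mitochondrial DNA were not analysed here. A symbol is not a role: Ndufa4, counted here with complex I, is known today as a component of complex IV, and Cox7a2l encodes a factor that joins complexes III and IV.

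Complexes I and II take electrons from NADH and from succinate, complex III passes them through cytochrome c to complex IV, which reduces oxygen, and complex V uses the resulting proton gradient to make ATP. Normal hematopoietic stem cells keep this activity low and rely largely on glycolysis. The study asked how the metabolism of leukemic stem cells (LSCs) that persist under a tyrosine kinase inhibitor (TKI) differs from that of untreated LSCs, and the comparison here gives the transcript levels of the respiratory chain in the libraries labelled as such.

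All 8 libraries came from C57BL/6 mice labelled CML, which the study's methods give as BCR-ABL×SCL-tTA double transgenics, in which tTA under the SCL promoter switches on BCR-ABL in stem and progenitor cells once tetracycline is withdrawn. 4 libraries were from untreated animals (CML) and 4 from animals given imatinib by gavage on alternate days for 30 days at a labelled dose of 400 mg/kg (CML-TKI). Sex and age are not given for single libraries, and for this comparison the study's text gives a lower imatinib dose than the labels, a conflict that the sources leave unsettled. The labels give a CD150-negative, CD48-positive sort within Lin-Sca1+cKit+Flt3- cells for all 8 libraries, whereas the study defines LSCs by the opposite phenotype. The columns name CML libraries 1, 2, 3 and 5 and CML-TKI libraries 1 to 4. Nothing in the labels says that each library came from a different animal, so p-values measure the spread between these libraries, which may be technical. CML 1, 2 and 3 were far closer to each other than other libraries of a group. Between 2 of them the counts differed by a chi-square of 3.56 to 4.79 per degree of freedom, where sampling noise alone gives about 1, against 51.3 to 55.3 between each of them and CML 5 and 23.9 to 60.6 between CML-TKI libraries. The biological coefficient of variation was 10.1% over CML 1 to 3, 26.8% over all 4 CML libraries and 43.6% over CML-TKI. The sources do not say which animals CML 1 to 3 came from, and the CML group may hold fewer than 4 independent samples, and with CML 1 to 3 summed to 1 library edgeR called 122 genes against 1220 with the libraries as labelled. In bulk samples, fewer cells of a type and less RNA per cell cannot be told apart.

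Library totals were between 4939644 and 8620101 counts in CML and between 1041552 and 5104268 in CML-TKI, with the lowest in CML-TKI 3. The subunit genes together took 0.380% to 0.455% of the counts in CML and 0.350% to 0.562% in CML-TKI. A gene with 3 counts, taken as the limit that a count of 0 allows, stood at 0.409 to 0.580 CPM (counts scaled to a common library size by TMM) in CML and at 0.570 to 3.29 CPM in CML-TKI; these limits cover counting error only. Of the sort markers, Kit was 764 to 1023 CPM in CML and 194 to 290 CPM in CML-TKI and fell, as did Slamf1 (CD150), at 29.01 to 37.7 CPM against 0.620 to 6.58 CPM. Cd48 rose from 3.87 to 6.40 CPM to between 39.9 and 178 CPM, while Ly6a (Sca1) and Flt3 did not pass the test. The labelled gate thus went against the Slamf1 and Cd48 transcripts of the CML libraries, and the LSC phenotype of the study against those of the CML-TKI libraries.

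The cell type markers set beside every comparison here also moved with the groups, and in the CML-TKI libraries they went against the label of stem cells. Of 12 granulocyte markers tested, 11 rose in CML-TKI, the highest being Mpo and Elane, and the summed level of the 13 genes was 164 to 272 CPM in CML and 1476 to 8457 CPM in CML-TKI. Of 8 monocyte and macrophage markers, led by Lyz2 and F13a1, 7 rose, with sums of 235 to 316 CPM and 1440 to 7355 CPM. Of 9 HSC markers tested 4 fell, among them Hlf and Gata2, with sums over the 10 genes of 1427 to 1581 CPM and 48.7 to 451 CPM, and 2 of 7 megakaryocyte markers fell, with sums of 1245 to 1503 CPM and 64.5 to 567 CPM. DESeq2 called 4 of 10 HSC and 4 of 7 megakaryocyte markers lower, and limma-voom 8 of 9 and 5 of 7. The 7 erythroid genes summed to 140 to 238 CPM in CML and to 61.7 to 457 CPM in 3 CML-TKI libraries, against 23913 CPM in CML-TKI 3; of 6 tested 0 passed in edgeR, 3 had an unadjusted p under 0.05, and limma-voom called 1 higher and 1 lower and DESeq2 0 of the 2 it tested. The 6 lymphoid genes, with Cd3e and Cd3g at 0 in all CML libraries, summed to 0.386 to 1.92 CPM and 4.37 to 169 CPM, and DESeq2, which alone tested any of them, called 2 of 4 higher. The part of these shifts in the results below was not tested.

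No subunit gene passed the threshold of an adjusted p under 0.05 by edgeR's quasi-likelihood test. Of the 77 genes tested 0 were called higher in CML-TKI and 0 lower, where 6.29% and 3.93% of all 11937 genes tested were called. At an unadjusted p under 0.05 there were 5 (6.49%), against 25.7% of all genes: Cox7a2l, Cox5a, Atp5md, Atp5pb and Ndufb7. DESeq2 called 1 subunit, Cox7a2l, lower (log2 fold change -0.71, adjusted p = 0.0064), where it called 7.94% of genes lower and 9.75% higher. limma-voom with sample quality weights called 7 higher (Cox6a1, Cox7b, Ndufb4c, Cox7a2, Cox5a, Cox6c and Atp5md), where it called 10.4% of genes higher and 10.9% lower. In edgeR, leaving out CML-TKI 1 made Atp5pb pass (log2 fold change 0.87, adjusted p = 0.0497), in a setting that called 9.64% of all genes higher and 11.0% lower, and leaving out any other single library gave no call.

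With the libraries as labelled, most of the small differences pointed to higher levels in CML-TKI. The log2 fold change of CML-TKI over CML was above 0 for 53 of 77 subunits (68.8%), against 49.99% of all genes tested, and the median was 0.23 against 0.00 for all genes. This excess did not hold with CML 1 to 3 summed to 1 library, where 41 of 78 subunits (52.6%) were above 0, against 51.1% of all genes, and the median was 0.0071 against 0.02. With a library left out the median of the subunits was between 0.14 and 0.46, the farthest values being 0.15 without CML 2, 0.14 without CML 3 and 0.46 without CML 5. The medians by complex were 0.20 for complex I, -0.01 for complex II, 0.43 for complex III, 0.31 for complex IV and 0.32 for complex V. That of complex II was above 0 (0.08) when libraries were scaled by their totals alone and (0.0029) without Rn45s, while the other complexes stayed above 0 under every scaling tried. For 28 of 77 subunits (36.4%) the whole 95% interval lay within a 2-fold change in either direction, against 24.1% of all genes. These intervals treat CML 1 to 3 as separate libraries and may be too narrow if they are not independent.

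**Figure D1:**
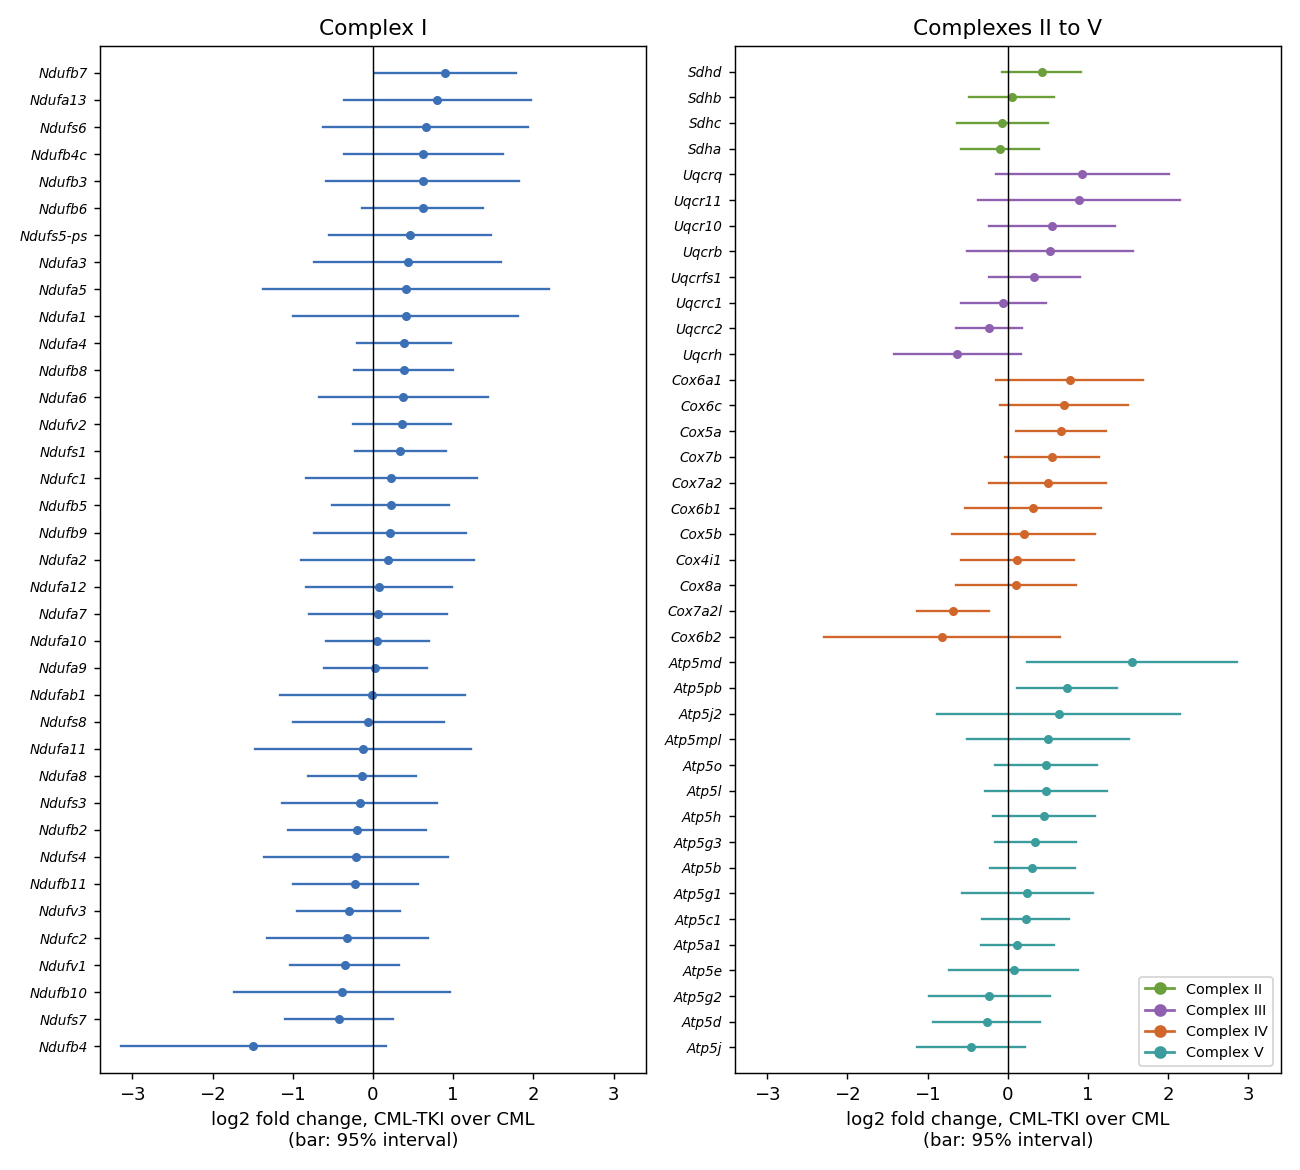
Log2 fold change of CML-TKI over CML for 76 of the 77 subunit genes tested (points), with 95% intervals (bars), complex I on the left and complexes II to V on the right, coloured by complex. The points lie between -1.49 (Ndufb4) and 1.55 (Atp5md), and 5 intervals exclude 0.

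Without overlap between the groups, 4 subunits (5.19%) had their lowest CML-TKI value above their highest CML value, against 10.3% of all genes tested, and 2 (2.597%) were lower in the same sense, against 13.1%. The higher genes were Ndufb7, Cox5a, Atp5md and Atp5pb and the lower ones Cox7a2l and Ndufb4. Ndufb4 had a rounded count of 0 in CML-TKI 3, which allows up to 3.29 CPM. That limit is above CML 2 (2.51 CPM) and CML 5 (2.75 CPM), so the separation of Ndufb4 is not settled. The count of higher genes rested on CML 5. Without that library 27 of 77 subunits (35.1%) were higher with no overlap, against 13.3% of all genes, and 3 (3.90%) were lower, against 17.5%. CML 5 was the highest CML library in 89.6% of subunits and 40.7% of all genes, so leaving it out acts on these shares unequally. The CML side was then CML 1 to 3 alone, which may not be independent samples. The lower count was 3 or 4 whichever library was left out, against 13.4% to 20.9% of all genes, and it was 4 (5.19%) on leaving out CML 1, CML-TKI 1 or CML-TKI 4, against 13.4%, 20.9% and 16.6% of all genes.

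**Figure D2:**
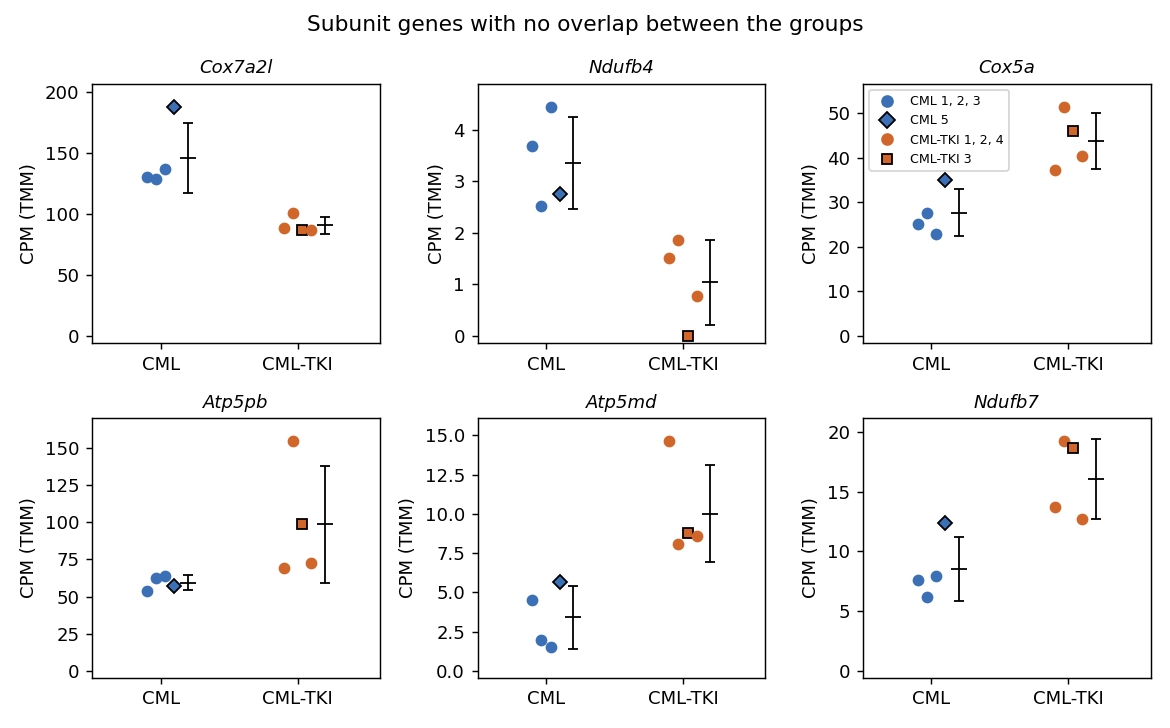
CPM of the 6 subunit genes whose CML (blue) and CML-TKI (orange) libraries did not overlap, with a point per library and, beside each group, its mean ± SD (n = 4). For Ndufb4 the count of 0 in CML-TKI 3 allows up to 3.29 CPM, above CML 2 and CML 5. Cox7a2l lies between 129 and 188 CPM in CML and between 86.6 and 101 CPM in CML-TKI.

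The library CML 5 stood apart from the other untreated libraries in this gene group. It held the highest value of the 4 CML libraries in 69 of 77 subunits (89.6%), against 40.7% of all genes tested. Its log2 CPM exceeded the mean of CML 1 to 3 by a median of 0.76 over the subunits and of 0.02 over all genes. In the mean log2 CPM of a complex, CML 1, 2 and 3 were at 3.87, 3.88 and 3.86 for complex I and CML 5 at 4.58, above the 4.38, 4.19, 3.69 and 4.17 of CML-TKI 1 to 4. For complex II the values were 6.32, 6.31, 6.28 and 6.69 in CML and 6.38, 6.69, 6.39 and 6.43 in CML-TKI. For complex III they were 4.93, 5.01, 4.88 and 5.71 in CML and 5.51, 5.56, 5.52 and 4.98 in CML-TKI. In each of these, CML 1 to 3 lay close together and CML 5 was at or above the highest CML-TKI libraries.

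Complex IV showed the split most clearly, at 4.46, 4.52 and 4.51 in CML 1 to 3, 5.41 in CML 5 and 5.06, 5.03, 4.98 and 4.93 in CML-TKI. Complex V was 5.21, 5.12 and 5.05 in CML 1 to 3, 5.88 in CML 5 and 5.81, 5.73, 5.48 and 5.57 in CML-TKI. In complexes II, IV and V all 4 CML-TKI libraries were above CML 1 to 3 and none was clearly above CML 5, and in complexes I and III a single CML-TKI library (CML-TKI 3 and CML-TKI 4, respectively) was not above all of CML 1 to 3. Without CML 5 the median log2 fold changes were 0.38, 0.17, 0.63, 0.72 and 0.50 for complexes I to V, 64 of 77 subunits were above 0, and 0 subunits passed the adjusted threshold in edgeR while 20 (25.97%) had an unadjusted p under 0.05, against 24.1% of all genes (lowest adjusted p = 0.0525, Cox6a1). With CML libraries 1 to 3 summed to a single library, which weights CML 5 more, the medians were -0.02, -0.09, 0.22, 0.02 and 0.15.

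**Figure D3:**
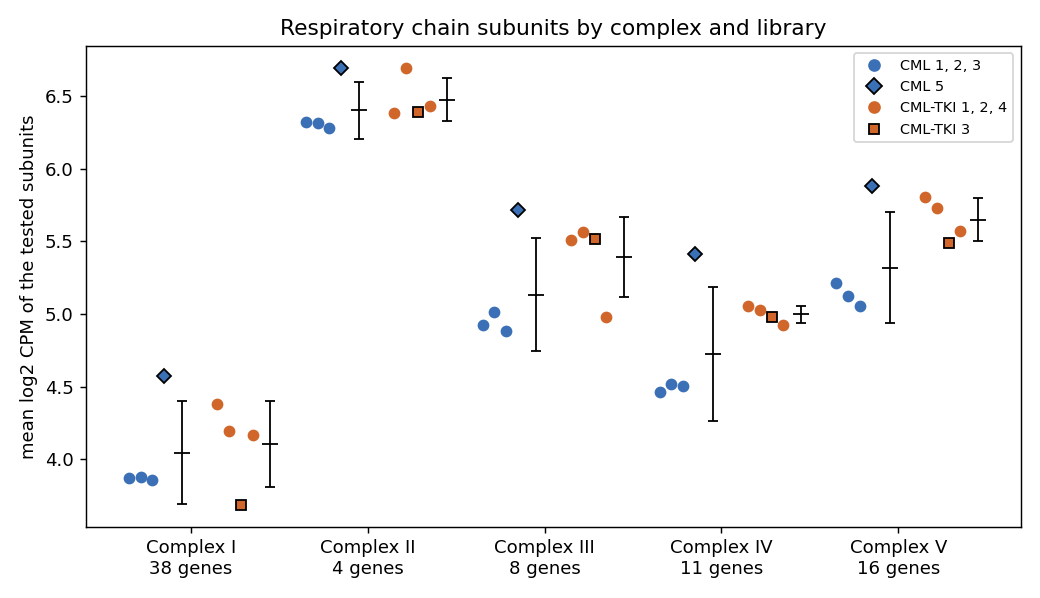
Mean log2 CPM over the tested subunits of each complex, with a point per library (CML blue, CML-TKI orange; CML 5 is the diamond and CML-TKI 3 the outlined square) and, beside each group, its mean ± SD (n = 4). CML 5 lies above CML 1 to 3 in every complex, by 0.39 in complex II to 0.91 in complex IV.

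The height of CML 5 went with transcript length. Over 74 subunits with a length in GENCODE, the difference of CML 5 from CML 1 to 3 had a Spearman rho of -0.68 with the length, and over 11703 genes a rho of -0.48. These are descriptions across genes that share the same libraries. For 49 subunits under 1000 bases the median difference was 0.94, and CML 5 was above in 47 of them. For 25 subunits of 1000 bases or more it was 0.48, with CML 5 above in 21. Among all genes the medians were 0.69 for 861 genes under 1000 bases and -0.03 for 10842 longer genes. The difference between the groups also went with length among the subunits, with a rho of -0.33 between the log2 fold change and the length, against 0.05 over all genes. The median log2 fold change was 0.34 for the shorter subunits and 0.06 for the longer ones, against -0.06 and 0.01 for all genes. Measured from CML 1 to 3 alone, the median difference of the CML-TKI mean was 0.53 for the shorter subunits and 0.16 for the longer ones, against -0.02 and -0.16 for all genes. CML 5 also gave 38.3% of its counts to the ribosomal RNA gene Rn45s, against 20.2% to 23.1% in CML 1 to 3 and 9.23% to 22.5% in CML-TKI. The part of either in the results was not tested. The subunit transcripts are short, with a median of 737 bases against 2858 bases for all genes.

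**Figure D4:**
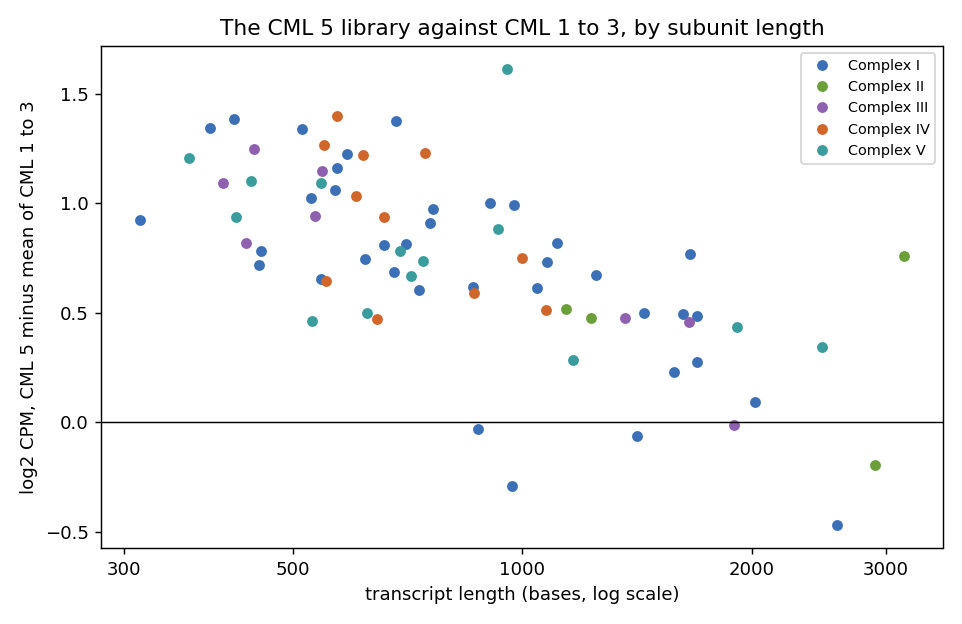
Difference in log2 CPM between CML 5 and the mean of CML 1 to 3 (vertical axis) against transcript length in bases (horizontal axis, log scale) for 74 subunit genes, coloured by complex. The shorter the transcript, the higher CML 5 tends to lie, with a Spearman rho of -0.68.

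Complex I, the NADH dehydrogenase, had 24 of 38 tested subunits above 0 and 14 below. Its core subunits carry the flavin, the iron-sulphur clusters and the quinone site. Among these, Ndufs7, at 35.3, 28.2, 30.5 and 59.0 CPM and 28.3, 32.5, 23.0 and 29.7 CPM, had the lowest log2 fold change of the better expressed complex I genes, -0.42 (SE 0.30, interval -1.10 to 0.25, adjusted p = 0.421). CML 5 alone was clearly above the other libraries, and without it the log2 fold change was -0.15. Ndufs1 (0.34, interval -0.23 to 0.91) and Ndufv2 (0.36, interval -0.25 to 0.97) were above 0, Ndufv1 (-0.35, interval -1.03 to 0.33) and Ndufs3 (-0.16, interval -1.13 to 0.80) below, and Ndufs8 was at -0.06 (interval -0.995 to 0.883). Changes of up to about 2-fold in either direction were thus not resolved for the last.

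Of the accessory subunits, Ndufb7, part of the membrane arm, was at 7.63, 6.18, 7.92 and 12.4 CPM in CML and at 13.7, 19.2, 18.6 and 12.7 CPM in CML-TKI. Every CML-TKI library was above every CML library, by little in CML-TKI 4 over CML 5, and the log2 fold change was 0.90 (SE 0.39, interval 0.02 to 1.78, adjusted p = 0.183). Ndufa4 was at 30.9, 36.7, 35.4 and 56.6 CPM and at 55.1, 57.3, 54.8 and 41.4 CPM (log2 fold change 0.38, interval -0.20 to 0.97). The remaining 29 tested accessory genes lay between -1.49 (Ndufb4) and 0.80 (Ndufa13).

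Ndufb4, another membrane arm subunit, is shown with its sequence because a second row, Ndufb4c, carries the same coding sequence. Ndufb4 lies on chr16:37647602-37654368 and Ndufb4c on chr15:73809449-73809933 (GRCm38, RefSeq), where GENCODE lists a processed pseudogene, a copy of a spliced transcript, and RefSeq a protein-coding gene. Their 390 coding bases in GENCODE M21 are 100% identical, and the first 150 of them, both read 5′ to 3′ from the minus strand with no base in capitals because none differs, are:
Ndufb4: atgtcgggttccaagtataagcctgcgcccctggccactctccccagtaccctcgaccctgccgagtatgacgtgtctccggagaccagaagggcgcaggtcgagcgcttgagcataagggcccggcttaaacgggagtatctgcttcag
Ndufb4c: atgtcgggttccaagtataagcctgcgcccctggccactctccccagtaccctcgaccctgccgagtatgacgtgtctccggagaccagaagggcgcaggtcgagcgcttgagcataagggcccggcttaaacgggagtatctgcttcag

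Ndufb4 was at 3.68, 2.51, 4.44 and 2.75 CPM in CML and at 1.52, 1.86, 0 and 0.780 CPM in CML-TKI, with a log2 fold change of -1.49 (SE 0.74, adjusted p = 0.242). Ndufb4c was at 9.53, 8.88, 7.73 and 22.7 CPM and at 19.4, 19.2, 12.1 and 24.2 CPM, with a log2 fold change of 0.63 (SE 0.44, adjusted p = 0.416). Reads inside the coding bases cannot tell the rows apart, and the rows pointed in opposite directions. In the deposited values before rounding, Ndufb4 held 10.9% to 36.1% of the pair's counts in CML and 3.04% to 9.53% in CML-TKI. Summed, the pair was at 13.2, 11.4, 12.2 and 25.4 CPM and at 20.9, 21.1, 12.1 and 24.97 CPM, with a log2 fold change of 0.36 (SE 0.39, adjusted p = 0.612). Ndufs5, a subunit on the intermembrane side, had 1 to 15 counts in CML and 1 to 3 in CML-TKI. Ndufs5-ps, counted among the subunits by its symbol, was at 5.86 to 14.3 and 7.28 to 17.0 CPM. RefSeq lists it as a transcribed pseudogene, and its sequence was not compared with that of Ndufs5. Summed, Ndufs5 and Ndufs5-ps gave a log2 fold change of 0.43 (SE 0.43, adjusted p = 0.581).

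Complex II, the succinate dehydrogenase, is the only complex with all its subunits in the nucleus, and its 4 genes had the lowest median SE of the complexes, 0.23. Sdha, the flavoprotein, was at 164, 167, 157 and 142 CPM in CML and at 110, 181, 125 and 172 CPM in CML-TKI (log2 fold change -0.10, SE 0.22, interval -0.58 to 0.38, adjusted p = 0.82). Sdhd, a membrane anchor, was at 66.0, 67.0, 69.2 and 93.9 CPM and at 79.4, 119, 110 and 90.0 CPM (0.42, SE 0.22, interval -0.07 to 0.92, adjusted p = 0.265). In Sdhd all 4 CML-TKI libraries were above CML 1 to 3, whereas the groups were mixed in Sdha. Sdhb, the iron-sulphur protein (0.05, interval -0.49 to 0.58), and Sdhc, the other anchor (-0.07, interval -0.64 to 0.50), were near 0. For all 4 genes the intervals, with the libraries as labelled, lay within a 2-fold change.

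Complex III, the cytochrome bc1 complex, had 5 of 8 genes above 0. Uqcrc1 and Uqcrc2, the core proteins, had log2 fold changes of -0.06 (interval -0.58 to 0.47) and -0.23 (interval -0.65 to 0.18), and Uqcrfs1, the Rieske iron-sulphur protein, of 0.33 (interval -0.24 to 0.90). The small subunits spread further. Uqcrq, the ubiquinone-binding subunit, was at 17.8, 13.9, 15.1 and 33.5 CPM in CML and at 76.0, 32.2, 24.1 and 19.5 CPM in CML-TKI (0.93, SE 0.48, interval -0.15 to 2.004, adjusted p = 0.261), and CML-TKI 1 carried most of that difference: without it the log2 fold change was 0.33. Uqcrh, the hinge protein, was at 24.6, 28.4, 22.2 and 55.8 CPM and at 20.7, 25.4, 21.9 and 16.9 CPM (-0.63, SE 0.36, interval -1.42 to 0.16, adjusted p = 0.301), and here CML 5 stood alone above the rest: without it the log2 fold change was -0.25. Uqcr10 (0.55), Uqcrb (0.53) and Uqcr11 (0.89) completed the complex, none with an interval that excluded 0.

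Complex IV, the cytochrome c oxidase, held the subunit with the lowest adjusted p. It also held the largest share of genes with no overlap once CML 5 was left out. Of 11 genes 8 were then higher and 1 lower, against 13.3% and 17.5% of all genes. CML 5 was the highest CML library in 11 of these 11 genes, against 40.7% of all genes. Cox7a2l, on chr17:83501917-83514333 (GRCm38), encodes a factor that joins complexes III and IV into supercomplexes, and C57BL/6 mice are known to carry a shortened form of it. It was at 130, 129, 136 and 188 CPM in CML and at 88.3, 101, 86.6 and 86.9 CPM in CML-TKI. Every CML library was above every CML-TKI library, with CML 5 the highest. The log2 fold change was -0.68 (SE 0.20, interval -1.13 to -0.23, adjusted p = 0.0592 by edgeR), that is, 0.622 of the CML level. Leaving out each library in turn gave -0.75 to -0.55 with adjusted p between 0.058 and 0.133. With CML 1 to 3 summed to 1 library the lowest edgeR adjusted p of any subunit was 0.267.

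Cox5a, which sits beside the catalytic core, was at 25.1, 27.6, 22.8 and 34.9 CPM in CML and at 37.2, 51.4, 46.0 and 40.3 CPM in CML-TKI (log2 fold change 0.66, SE 0.25, interval 0.10 to 1.22, adjusted p = 0.129). The groups did not overlap. Cox4i1, its neighbour in the complex, was at 50.8, 54.2, 57.4 and 127 CPM and at 85.1, 85.2, 72.3 and 71.8 CPM, so that all CML-TKI libraries lay between CML 1 to 3 and CML 5 (0.12, interval -0.58 to 0.82, adjusted p = 0.855). Cox6a1, a regulatory subunit, was at 15.5, 12.5, 13.7 and 37.3 CPM and at 29.4, 26.96, 48.2 and 32.0 CPM (0.77, SE 0.41, interval -0.14 to 1.69, adjusted p = 0.274). Without CML 5 its log2 fold change was 1.27.

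The small subunits Cox7b (0.56), Cox6c (0.71), Cox7a2 (0.50), Cox6b1 (0.31), Cox5b (0.20) and Cox8a (0.10) were above 0 with intervals that included 0. Cox8a shows how much CML 5 weighs: it was at 46.2, 42.7, 41.4 and 105 CPM in CML and at 53.3 to 73.7 CPM in CML-TKI, and without CML 5 its log2 fold change was 0.53. Cox4i2, the alternative form of Cox4i1 known from lung and low oxygen, had 8, 5, 6 and 4 counts in the CML libraries and 0 in all 4 CML-TKI libraries. In CML it was at 1.09, 0.965, 1.16 and 0.550 CPM, and a count of 0 allows up to 0.570, 0.930, 3.29 and 0.780 CPM in CML-TKI 1 to 4. CML 1 to 3 thus lay above the limits of CML-TKI 1, 2 and 4 and below that of CML-TKI 3, and CML 5 lay below all of them. Cox4i2 was too low for the filter; without the filter edgeR gave it an unadjusted p of 0.0083 and an adjusted p of 0.0816, and DESeq2 an unadjusted p of 0.0568 and no adjusted p. Cox6b2, known from testis, was at 1.91 to 4.95 CPM and 1.24 to 3.38 CPM (-0.83, interval -2.30 to 0.65). Cox7c, a constant subunit of the complex, was listed with 7, 0, 0 and 22 counts in CML and 24, 0, 0 and 7 in CML-TKI, a scatter that does not follow the groups.

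Complex V, the ATP synthase, had 13 of 16 genes above 0 and 15 of 16 without CML 5. The catalytic head genes Atp5a1 and Atp5b were the most abundant subunit genes per length: Atp5b reached 355 CPM per kb in CML and 439 in CML-TKI, where the median gene of complex V was at 59.9 and 72.1 and that of complex I at 22.5 and 25.2 CPM per kb. Atp5b was at 665, 612, 602 and 845 CPM in CML and at 1121, 900, 592 and 750 CPM in CML-TKI (log2 fold change 0.30, SE 0.24, interval -0.23 to 0.84, adjusted p = 0.465). Atp5a1 (0.12, interval -0.33 to 0.57) and the rotor gene Atp5c1 (0.22, interval -0.32 to 0.76) were closer to 0. The groups overlapped in all of these.

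The stalk and membrane genes held the larger differences. Atp5pb, subunit b of the peripheral stalk, was at 53.5, 62.5, 64.2 and 56.9 CPM in CML and at 69.3, 155, 98.6 and 72.8 CPM in CML-TKI (0.74, SE 0.28, interval 0.11 to 1.36, adjusted p = 0.128). CML 5 was among the other CML libraries here, and CML-TKI 2 was the highest: without it the log2 fold change was 0.42. Atp5md, a small membrane subunit that takes part in holding dimers of the enzyme, was at 4.49, 1.93, 1.55 and 5.64 CPM and at 14.6, 8.06, 8.77 and 8.59 CPM (1.55, SE 0.59, interval 0.24 to 2.86, adjusted p = 0.128). This was the largest difference of all 77 genes, at a low level. Atp5j, coupling factor 6 of the stalk, was at 26.3, 25.1, 25.1 and 42.8 CPM and at 27.9, 20.5, 18.6 and 19.3 CPM (-0.46, SE 0.30, interval -1.14 to 0.22, adjusted p = 0.378), and without CML 5, its highest library, the log2 fold change was -0.24. Atp5o, Atp5h, Atp5l, Atp5mpl and Atp5j2 lay between 0.45 and 0.63, and Atp5k had 0 to 5 counts in CML and 0 to 7 in CML-TKI.

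Several subunits exist as paralogues, and their ratio within a library needs no scaling between libraries. Of 10 pairs listed, 4 had at least 10 counts of both genes in every library, and their log2 ratios of counts were compared between the groups by exact permutation (two-sided). The 70 ways to relabel 8 libraries allow no p under 0.0286. The ratio of Cox7a2l to Cox7a2, a regular complex IV subunit with 61.3% of aligned coding bases the same, was 2.22, 2.25, 2.34 and 1.83 in CML and 0.80, 0.71, 1.53 and 0.88 in CML-TKI. The groups did not overlap, and the difference was -1.18 (mean 2.16 ± 0.22 SD against 0.98 ± 0.37 SD, n = 4 each; exact permutation p = 0.0286, Benjamini-Hochberg adjusted p = 0.114 over 4 pairs). With 4 pairs the adjusted value could not pass 0.05 unless other pairs also reached the smallest p. With CML 1 to 3 summed to 1 library the difference was -1.07 and the adjusted exact permutation p 0.267, and that smaller design cannot reach 0.05 either. The log2 fold changes of the genes themselves were 0.50 for Cox7a2 and -0.68 for Cox7a2l, and neither passed the edgeR test.

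**Figure D5:**
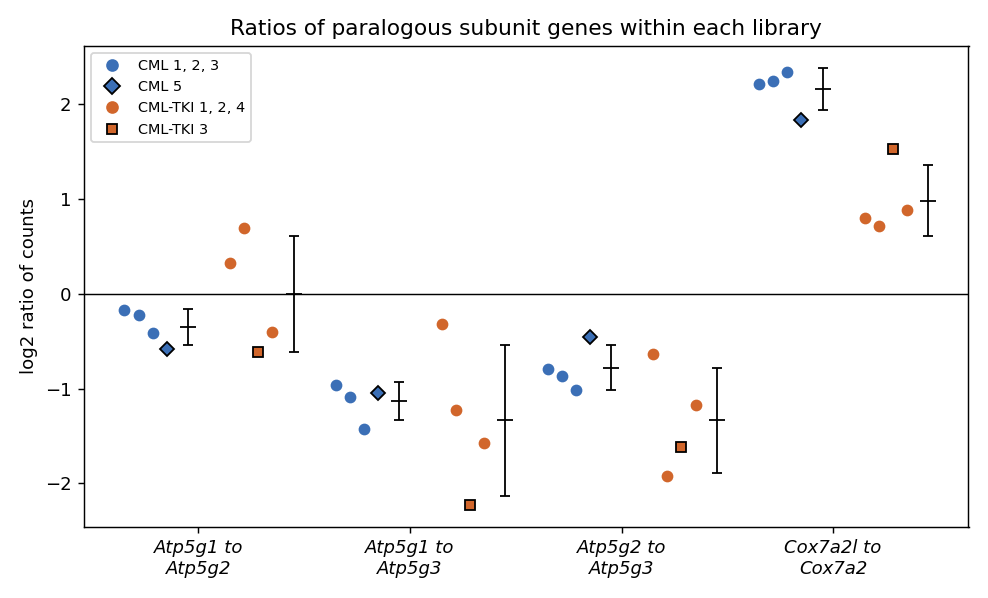
Log2 ratio of counts between paralogous subunit genes within each library (CML blue, CML-TKI orange; CML 5 is the diamond and CML-TKI 3 the outlined square), with mean ± SD (n = 4) beside each group. The ratio of Cox7a2l to Cox7a2 lies between 1.83 and 2.34 in CML and between 0.71 and 1.53 in CML-TKI, and the other 3 pairs overlap.

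The c subunit that forms the membrane ring of ATP synthase is encoded by 3 genes, Atp5g1, Atp5g2 and Atp5g3, whose proteins share the mature part while their import signals differ. The last 150 coding bases are shown because they tell whether reads can be assigned to a gene. They are written 5′ to 3′ from GENCODE M21, each from the minus strand of its chromosome (11, 15 and 2), with capitals at the 39 positions where the 3 genes are not all the same, 33 of them at the last base of a codon:
Atp5g1: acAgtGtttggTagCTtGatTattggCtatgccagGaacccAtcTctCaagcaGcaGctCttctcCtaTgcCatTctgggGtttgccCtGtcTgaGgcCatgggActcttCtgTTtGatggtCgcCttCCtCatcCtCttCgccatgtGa
Atp5g2: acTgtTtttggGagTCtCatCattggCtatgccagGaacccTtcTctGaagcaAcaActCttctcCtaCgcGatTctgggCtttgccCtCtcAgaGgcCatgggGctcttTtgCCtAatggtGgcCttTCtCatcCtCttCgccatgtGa
Atp5g3: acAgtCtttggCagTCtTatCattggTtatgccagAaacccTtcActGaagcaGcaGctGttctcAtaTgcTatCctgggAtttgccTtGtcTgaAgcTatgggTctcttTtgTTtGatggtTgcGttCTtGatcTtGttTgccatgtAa

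Between these genes 70.7% to 72.3% of the aligned coding bases were the same and the differing positions were spread along the stretch shown. Atp5g3 was at 83.3, 87.0, 84.3 and 135 CPM in CML and at 103, 138, 125 and 129 CPM in CML-TKI (log2 fold change 0.34, interval -0.16 to 0.85). Atp5g1 was at 0.24 (interval -0.58 to 1.06) and Atp5g2 at -0.23 (interval -0.98 to 0.52). Their ratios overlapped between the groups: the log2 ratio of Atp5g1 to Atp5g2 differed by 0.35 (exact permutation p = 0.371), that of Atp5g1 to Atp5g3 by -0.21 (exact permutation p = 0.6) and that of Atp5g2 to Atp5g3 by -0.55 (exact permutation p = 0.143), with n = 4 in each group. The spread between CML-TKI libraries was 0.56 to 0.80 (SD) in these ratios and 0.19 to 0.24 between CML libraries.

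Outside the subunits, 92 tested genes of the pathway were set beside them, namely assembly factors, cytochromes c and c1, coenzyme Q synthesis, regulators of mitochondrial transcription and biogenesis, and proteins of mitochondrial mass, and 2 rose and 1 fell, against 6.29% and 3.93% of all genes. Cycs, the somatic cytochrome c that carries electrons from complex III to complex IV, was at 45.8, 51.0, 39.8 and 40.6 CPM in CML and at 82.8, 130, 92.1 and 89.8 CPM in CML-TKI (log2 fold change 1.16, SE 0.22, adjusted p = 0.011). Unlike most subunits, Cycs was no higher in CML 5 than in the other CML libraries. Cs, citrate synthase, was at 202, 193, 197 and 210 CPM and at 374, 325, 292 and 272 CPM (0.66, SE 0.18, adjusted p = 0.0498). Coq8a, an atypical kinase needed for coenzyme Q, was at 72.6, 72.4, 83.1 and 95.1 CPM and at 21.8, 1.86, 13.2 and 3.64 CPM (-3.00, SE 0.64, adjusted p = 0.0169). In all 3 the groups did not overlap. Cycs missed the threshold without CML 3 (adjusted p = 0.051), Coq8a missed it without CML 5 (adjusted p = 0.0533), and Cs missed it whichever library was left out (adjusted p 0.0509 to 0.157). The number called was 1 on leaving out CML 3 or CML 5 (4.69% and 6.60% of all genes), 5 on leaving out CML-TKI 3 (9.79% of all genes) and 9 of 93 (9.68%) when CML-TKI 1 was left out (20.6% of all genes). With CML 1 to 3 summed all 3 missed it, at adjusted p of 0.181 for Cycs, 0.146 for Coq8a and 0.433 for Cs.

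Cyc1, the cytochrome of complex III itself, is left out by the symbol rule and was chosen after its values were seen. It was at 37.2, 38.0, 36.3 and 71.6 CPM in CML and at 84.5, 67.6, 76.7 and 47.6 CPM in CML-TKI (log2 fold change 0.59, adjusted p = 0.255). In Cyc1 the library CML 5 lay among the CML-TKI libraries, whereas in the mean of the complex III subunits it lay above them. Of 49 tested assembly factors of the complexes 0 passed in edgeR, 3 had an unadjusted p under 0.05 (against 25.7% of all genes), and DESeq2 and limma-voom each called 1 lower (against 7.94% and 10.9%). Their median log2 fold change was -0.06, with 19 above 0 and 30 below, where the subunits had 53 above and 24 below.

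How firmly a read belongs to its subunit varied. In 15 subunits an exon overlaps that of another gene, in 14 of them on the opposite strand (for example Atp5a1 with Haus1, Atp5j with Gabpa, Ndufs1 with Ino80dos, Ndufs3 with Kbtbd4 and Uqcrc2 with Pdzd9) and in Atp5o on the same strand as Donson. The counting is not stated to use strand, so reads from the shared part cannot be told apart.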

How the data were processed

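Total RNA of sorted cells was isolated with the RNeasy Plus mini kit and made into Nextera XT libraries. The authors aligned paired reads to mm10 with STAR 2.6.1d and, in Partek Flow (Partek 8.0 in the submitters' processing notes), assigned the alignments to RefSeq transcripts. The deposited values are estimated counts per gene, not normalized, for 8 libraries, and 8.32% to 22.1% of a library's values were not whole. They were rounded to whole numbers. The fourth CML column, numbered 5, matches no label's number and entered as an unnumbered CML library.

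CML-TKI was compared with CML by the two-sided quasi-likelihood test of edgeR 4.0.16 (R 4.3.3), with TMM scaling and robust dispersion estimates, on genes kept by filterByExpr (at least 10 counts in enough libraries and 15 in all). p-values were adjusted by Benjamini-Hochberg over 11937 genes, with a threshold of 0.05. SE was obtained from the log2 fold change and its F statistic. log2 CPM used a prior count of 2, and paralogue ratios a pseudocount of 0.5. DESeq2 1.42.0, limma-voom (limma 3.58.1) and other settings were alternatives. The test was tried on simulated data. Totals of 1041552 to 8620101 counts set the precision, and without molecular identifiers a count is not an independent molecule.

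The members and gene lists were chosen with earlier results of these data known. Genes were named by a rule: subunits past the threshold, the largest difference in each direction per complex at a mean log2 CPM of at least 3, core subunits, paralogues, subunits without overlap, subunits too low to test, pathway genes past the threshold, sort markers and the 2 leading genes of marker lists. Other subunits were named after their values were seen. Lengths and sequences came from GENCODE M21 (78 of 81 subunits matched) and coordinates from RefSeq, both on GRCm38, the assembly of mm10. Other experiments of the study were not analysed here. 1 subunit gene is counted among the members but not reported here.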

Additional observations from a re-analysis of the deposited data

Results flagged for a closer look

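In each group of 4 libraries, a library was set apart where its gap to the nearest of the others was more than 0.829 of the group's range (Dixon's 95% value). This was applied to 96 measures and groups, of which chance sets apart about 1 in 20, here 4.8, and 24 were set apart. In 19 of them the library was CML 5, in each as the highest of its group.

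The subunit genes in which CML 5 stood apart, with their CPM in that library, were Sdhd (93.9 CPM), Cox6a1 (37.3 CPM), Cox7a2l (188 CPM), Atp5j (42.8 CPM), Ndufs8 (37.1 CPM), Sdhc (92.2 CPM), Uqcrc1 (272 CPM), Uqcrfs1 (113 CPM), Cox4i1 (127 CPM), Cox5b (17.0 CPM), Atp5a1 (783 CPM), Atp5g2 (98.6 CPM), Atp5g3 (135 CPM), Cox7a2 (52.7 CPM) and Cox8a (105 CPM). The mean log2 CPM of a complex in CML 5 stood apart for complexes I (4.58), II (6.69), III (5.71) and IV (5.41). In log2 CPM, the CML-TKI mean lay below the mean of CML 1 to 3 in Cox7a2l (-0.54) and Atp5j (-0.26) and above it in the others (0.04 to 1.24).

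In the CML-TKI group, CML-TKI 2 stood apart as the highest for Cox7a2l (101 CPM) and for the mean log2 CPM of complex II (6.69), CML-TKI 4 as the lowest for Ndufa4 (41.4 CPM) and for complex III (4.98), and CML-TKI 1 as the highest for Atp5md (14.6 CPM).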

How the results depend on the processing

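By edgeR 0 subunits were called in either direction under RLE scaling, library totals alone, TMM without Rn45s, no filter, a filter with minimum count 20 and a threshold of 0.01. At a threshold of 0.1, 1 subunit was called lower (7.22% of all genes, and 9.17% higher), as with DESeq2 (1 lower), and limma-voom called 7 higher. Leaving out each library gave 0 to 1 higher and 0 lower, against 2.97% to 9.64% and 1.15% to 11.0% of all genes. The number of pathway genes called (3) became 7 with DESeq2 (17.7% of all genes), 8 with limma-voom (21.3%), 7 at 0.1 (16.4%), 0 at 0.01 (3.31%), 0 with CML 1 to 3 summed (0.971%), and 1 to 9 with a library left out (4.13% to 20.6%). Subunits higher without overlap (4) became 8 by library totals alone (11.2% of all genes) and 4 to 27 with a library left out (11.0% to 15.5%), and those lower (2) became 4 with no filter (13.1%), 1 with minimum count 20 (12.9%), 5 with CML 1 to 3 summed (16.2%), and 3 to 4 with a library left out (13.4% to 20.9%). The medians ranged over libraries left out from 0.04 to 0.38 (complex I), -0.073 to 0.17 (II), 0.18 to 0.63 (III), 0.13 to 0.72 (IV) and 0.26 to 0.50 (V). The sign of the median changed for complex II under library totals alone (0.08), TMM without Rn45s (0.0029), limma-voom (0.12), the replicate block, each setting without CML 5, and without CML-TKI 1 (0.01), CML-TKI 3 (0.08) or CML-TKI 4 (0.04), and for complex I with CML 1 to 3 summed (-0.02). The Atp5g1 to Atp5g3 difference changed sign without CML-TKI 3 (0.09). The Cox7a2l to Cox7a2 difference stayed between -1.36 and -1.09 with a library left out.

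In settings added after seeing the data, leaving out CML 5 with CML-TKI 3 gave 5 subunits called higher (4.66% of all genes), 38 higher and 4 lower without overlap (18.5% and 22.03% of all genes), and medians of 0.44, 0.22, 0.60, 0.69 and 0.55 for complexes I to V. Leaving out CML 5 with CML-TKI 1 gave 5 called higher and 1 lower (10.4% and 9.60% of all genes), 10 pathway genes, 30 higher and 4 lower without overlap (19.6% and 26.05%), and medians of 0.16, 0.13, 0.62, 0.61 and 0.46. Summing Ndufb4 with Ndufb4c and Ndufs5 with Ndufs5-ps left 1 lower without overlap (13.1% of all genes).

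The labels' replicate numbers are not said to pair animals, and deviations from group means correlated at -0.04, 0.10 and 0.09 for numbers 1 to 3. With the numbers as a replicate block, which drops CML 5 and CML-TKI 4, edgeR called 193 genes against 1220, 0 pathway genes and 0 subunits; 32 subunits were higher and 4 lower without overlap (16.4% and 21.2% of all genes), and the medians were 0.35, 0.23, 0.69, 0.79 and 0.47 for complexes I to V. The cause of these changes was not tested, beyond the fewer libraries in some settings. Of 877 alternative values for the 40 genes the rule covers, 840 kept their side of the threshold, 14 passed it newly and 23 no longer passed, and 47 changed sign without being called. Depth was lowest in CML-TKI 3, where 3 counts are 3.29 CPM.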
